A study of Homo sapiens with 12 samples.

Results

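The data described here are the state of T47D breast cancer cells that carry a liganded progesterone receptor, set against the same treatment in cells without the receptor. The 4 arrays compared, of 12 in the series, were those of wild-type (WT) cells and of PR-null cells, all exposed to R5020 for 6 h, with 2 arrays in each group. WT cells were T47D-Y cells stably expressing wild-type PR-B, and PR-null cells were the same cells transfected with vector alone. T47D-Y is a subline of the luminal T47D breast carcinoma line that has lost its own progesterone receptor, and R5020 is a synthetic progestin that binds the receptor. The vehicle arrays of both lines (ethanol, 6 h, 2 arrays each) gave the difference already present without ligand, and the remaining arrays were of cells expressing the SUMO-deficient K388R receptor (KR). All cells were serum starved before treatment, and the lines were expanded from single-cell clones, whose number per arrayed line is not stated, so that the receptor and differences between clones cannot be told apart in any comparison of lines. The arrays were Illumina bead arrays of total RNA, and the values are log2 intensities, for which a difference of 1 is a doubling.

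Progesterone receptor is a nuclear receptor that, once bound by progestin, dimerises and binds response elements in DNA, where it recruits coregulators that raise or lower transcription of nearby genes. Receptor without ligand is held in chaperone complexes, yet part of it can reach chromatin and influence genes in the absence of hormone. In breast epithelium progestins act on proliferation, differentiation, metabolism and the paracrine factors that luminal cells release. A comparison of liganded receptor with no receptor at all therefore sums 2 components, the difference between the lines in vehicle and the effect of the ligand in WT cells, less any effect of the ligand in PR-null cells.

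The targeted gene was measured first. WT cells carried it as a transfected PR-B cDNA, and whether its probe read that cDNA or the cells' own gene was not tested. PGR, the receptor's own gene, was at 7.66 and 7.51 in WT cells with R5020, against 5.44 and 5.45 in PR-null cells with R5020, where its probe was not above the background limit of 6.09 (the 95th percentile of the values of 455 probes for olfactory receptors, which breast cells do not use). The WT arrays lay above the PR-null arrays, by at least 2.82-fold. In vehicle PGR was at 8.49 and 8.62 in WT cells, against 5.38 and 5.46 in PR-null cells, and R5020 lowered the WT level by 0.97 ± 0.11 (log2 difference ± SE, adjusted p = 4.5e-09). KR cells with R5020 read 9.78 and 9.59 for PGR, 2.10 above WT cells on the log2 scale, so that the 2 receptor lines did not carry equal PGR signal.

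Replicate arrays correlated at 0.9946 in WT cells with R5020 and 0.9951 in PR-null cells with R5020, whereas arrays of the 2 groups correlated at 0.9794 to 0.9806 (Pearson's r across probes, which are not independent replicates). Of 10 reference genes, 0 were called by limma in the net comparison, with log2 differences of -0.25 to 0.50. An unadjusted p under 0.05 was found for 5 of them and an adjusted p under 0.01 for 1. ACTB differed by -0.06 (adjusted p = 0.868), GAPDH by -0.20 (adjusted p = 0.349) and TBP by 0.30 (adjusted p = 0.0883). Of 16 markers of leukocytes, endothelium and fibroblasts, 4 or 5 were above the background limit on each array with R5020, and their summed log2 level was 95.9 and 96.2 in WT cells, against 95.8 and 95.7 in PR-null cells. Of 23 luminal epithelial markers, 22 or 23 were above the limit on each of these arrays. In these bulk extracts fewer cells expressing a gene and less RNA per cell cannot be told apart.

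With R5020, 852 of 20046 genes (4.25%) were higher and 725 (3.62%) were lower in WT cells than in PR-null cells, by a log2 difference beyond 0.6 (1.52-fold) with an adjusted p under 0.01. The median difference of the called genes was 1.83-fold for those higher and 1.81-fold for those lower. The adjusted p was at most 0.000417 among genes past the fold threshold, so that fold size alone set these counts. In vehicle the same lines differed at 295 genes that were higher in WT cells (1.47%) and 338 that were lower (1.69%). R5020 raised 661 genes (3.30%) and lowered 400 (2.00%) in WT cells, while 0 genes were called for R5020 in PR-null cells by limma at these thresholds (937 at an unadjusted p under 0.05).

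The net differences reached their size by different routes. Of the 852 genes higher in WT cells, 479 (56.2%) were called only for the R5020 effect, 121 (14.2%) only for the vehicle difference and 223 (26.2%) for neither alone, with both called in the rest. Of the 725 genes lower in WT cells, 206 (28.4%) were called only for the R5020 effect, 203 (28.0%) only for the vehicle difference and 275 (37.9%) for neither. Genes of the last kind carried smaller differences of one sign in both components: their median net difference was 0.71 for the higher genes (0.31 in vehicle and 0.42 with R5020 in WT cells) and -0.71 for the lower genes (-0.38 in vehicle and -0.33 with R5020). Examples were CTSV, a lysosomal cysteine protease, and YPEL5, lower in WT cells by 1.22 and 1.24 on the log2 scale (adjusted p = 2.35e-12 and 1.58e-12).

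**Figure D1:**
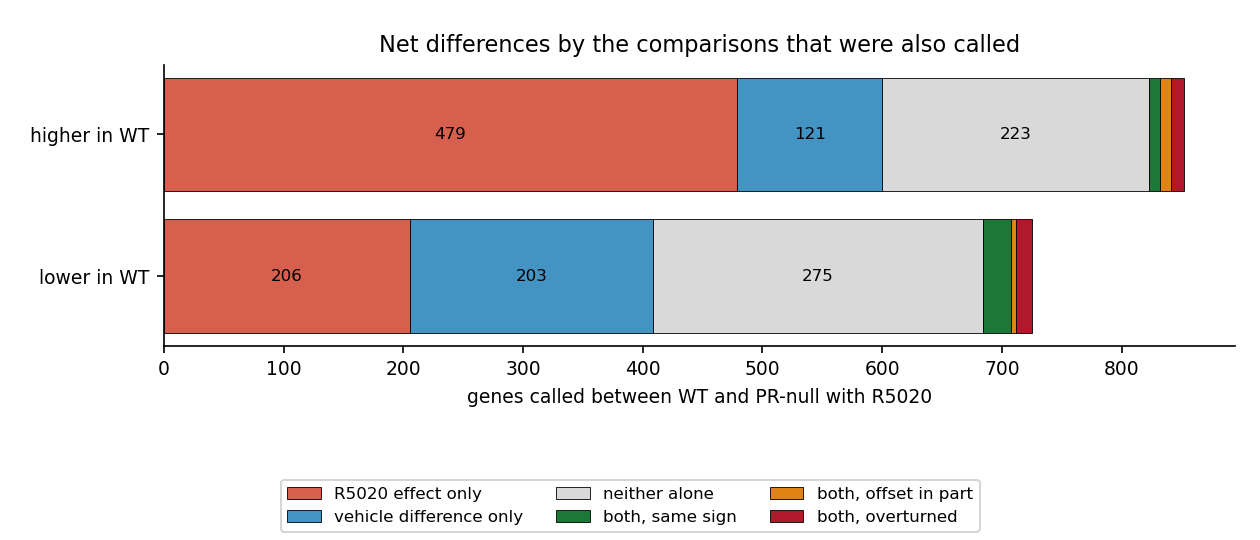
Number of genes called between WT and PR-null cells with R5020 (x axis), split by whether the R5020 effect in WT cells and the vehicle difference were also called. The R5020 effect alone accounts for 479 of the 852 higher genes, whereas among the 725 lower genes R5020 alone (206) and vehicle alone (203) hold similar numbers.

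Most of the highest net differences were called for the ligand effect. PHACTR3, which encodes a protein phosphatase 1 and actin regulator, was at 11.51 and 11.28 in WT cells with R5020, against 5.47 and 5.36 in PR-null cells with R5020, and at 5.60 and 5.56 in WT cells in vehicle. It was thus measured above background in WT cells only with ligand, at least 39.6-fold above PR-null cells (log2 difference 5.98 ± 0.12, adjusted p = 4.26e-36). One of the 2 other PHACTR3 probes was above the limit and gave 4.61. FKBP5, the immunophilin co-chaperone of steroid receptor complexes, was at 12.53 and 12.01 in WT cells, against 9.24 and 9.24 in PR-null cells. The difference was 8.18-fold (adjusted p = 1.38e-23), and the vehicle difference of 0.28 did not pass the test.

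Of the 15 genes with the highest net difference under the naming rule, 12 were called only for the R5020 effect. They included the adhesion receptor ADGRA2 (at least 11.8-fold), the acyl-CoA thioesterase ACOT6 (12.6-fold), the tumour necrosis factor receptor adaptor TRAF5 (8.07-fold), the granule proteoglycan SRGN (at least 7.60-fold), the potassium channel subunit KCNG1 (7.85-fold), the forkhead factor FOXO4 (7.26-fold), the cytokine receptor IL20RA (7.26-fold) and tissue factor, F3 (6.54-fold). The naming rule admitted only genes whose arrays did not overlap between the 2 groups, so the separation of these arrays is no added support. The further probes of KCNG1 (2.32), F3 (2.15) and SRGN (2.48) gave net differences of like size, while the 4 further TRAF5 probes, 1 of them above the limit, ranged over 0.01 to 1.23.

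Ligand also gave net loss. EFNB2, the ephrin ligand of endothelial and epithelial boundaries, read 7.04 and 7.25 in WT cells with R5020, against 10.28 and 10.14 in PR-null cells, an 8.39-fold lower level (log2 difference -3.07 ± 0.13, adjusted p = 1.17e-23). The same arrays gave FOXA1, the pioneer factor of luminal and steroid receptor enhancers, at 9.45 and 9.35 in WT cells, against 11.63 and 11.55 in PR-null cells, 4.58-fold lower (adjusted p = 1.60e-20). Neither gene was called in vehicle (log2 differences of -0.35 and 0.30). VASN, a membrane protein that binds TGF-beta (5.80-fold), CITED2, a CBP/p300-binding coregulator (4.46-fold), and CCNG2, an atypical cyclin linked to cell cycle arrest (4.07-fold), were lower in WT cells by the same route.

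A second group of net differences was present without ligand and was little moved by it. CDH10, a cadherin of the nervous system, was at 5.72 and 5.88 in WT cells with R5020, below the background limit, against 12.68 and 12.31 in PR-null cells, a level at least 84.5-fold lower (adjusted p = 2.89e-37). In vehicle it was below the limit in WT cells as well, at least 86.7-fold under PR-null cells. BCHE, butyrylcholinesterase, was at 5.86 and 5.82 in WT cells, against 11.40 and 11.36 in PR-null cells, at least 39.2-fold lower. KR cells with R5020 read 10.48 and 10.74 for BCHE and 8.83 and 8.55 for CDH10. The 2 receptor lines therefore differed from each other at these genes (WT at least 23.0-fold below KR for BCHE and at least 6.07-fold for CDH10, adjusted p = 2.2e-32 and 1.4e-22).

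Other genes of this kind were lower in both receptor lines. CST6, a cysteine protease inhibitor, was below the limit in WT cells with R5020 and at least 5.59-fold under PR-null cells. ANXA1, a phospholipid-binding protein induced by glucocorticoids, CLEC3A, a C-type lectin, and LIPG, a lipase, had net log2 differences of -2.86, -2.80 and -2.77 and vehicle differences of -2.42, -2.79 and -2.66. None of the 4 was called between WT and KR cells with R5020. Among the genes higher through the vehicle difference, PYCARD, the inflammasome adaptor ASC, was at 9.24 and 9.17 in WT cells with R5020, against 5.69 and 5.78 in PR-null cells, at least 8.67-fold higher (adjusted p = 2.86e-27), although its second probe gave only 0.57. APOD, a lipid-binding lipocalin (6.52-fold), TFF3, a secreted trefoil peptide (5.74-fold), and LRRC26, a potassium channel auxiliary subunit (3.53-fold), were higher in both treatments.

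**Figure D2:**
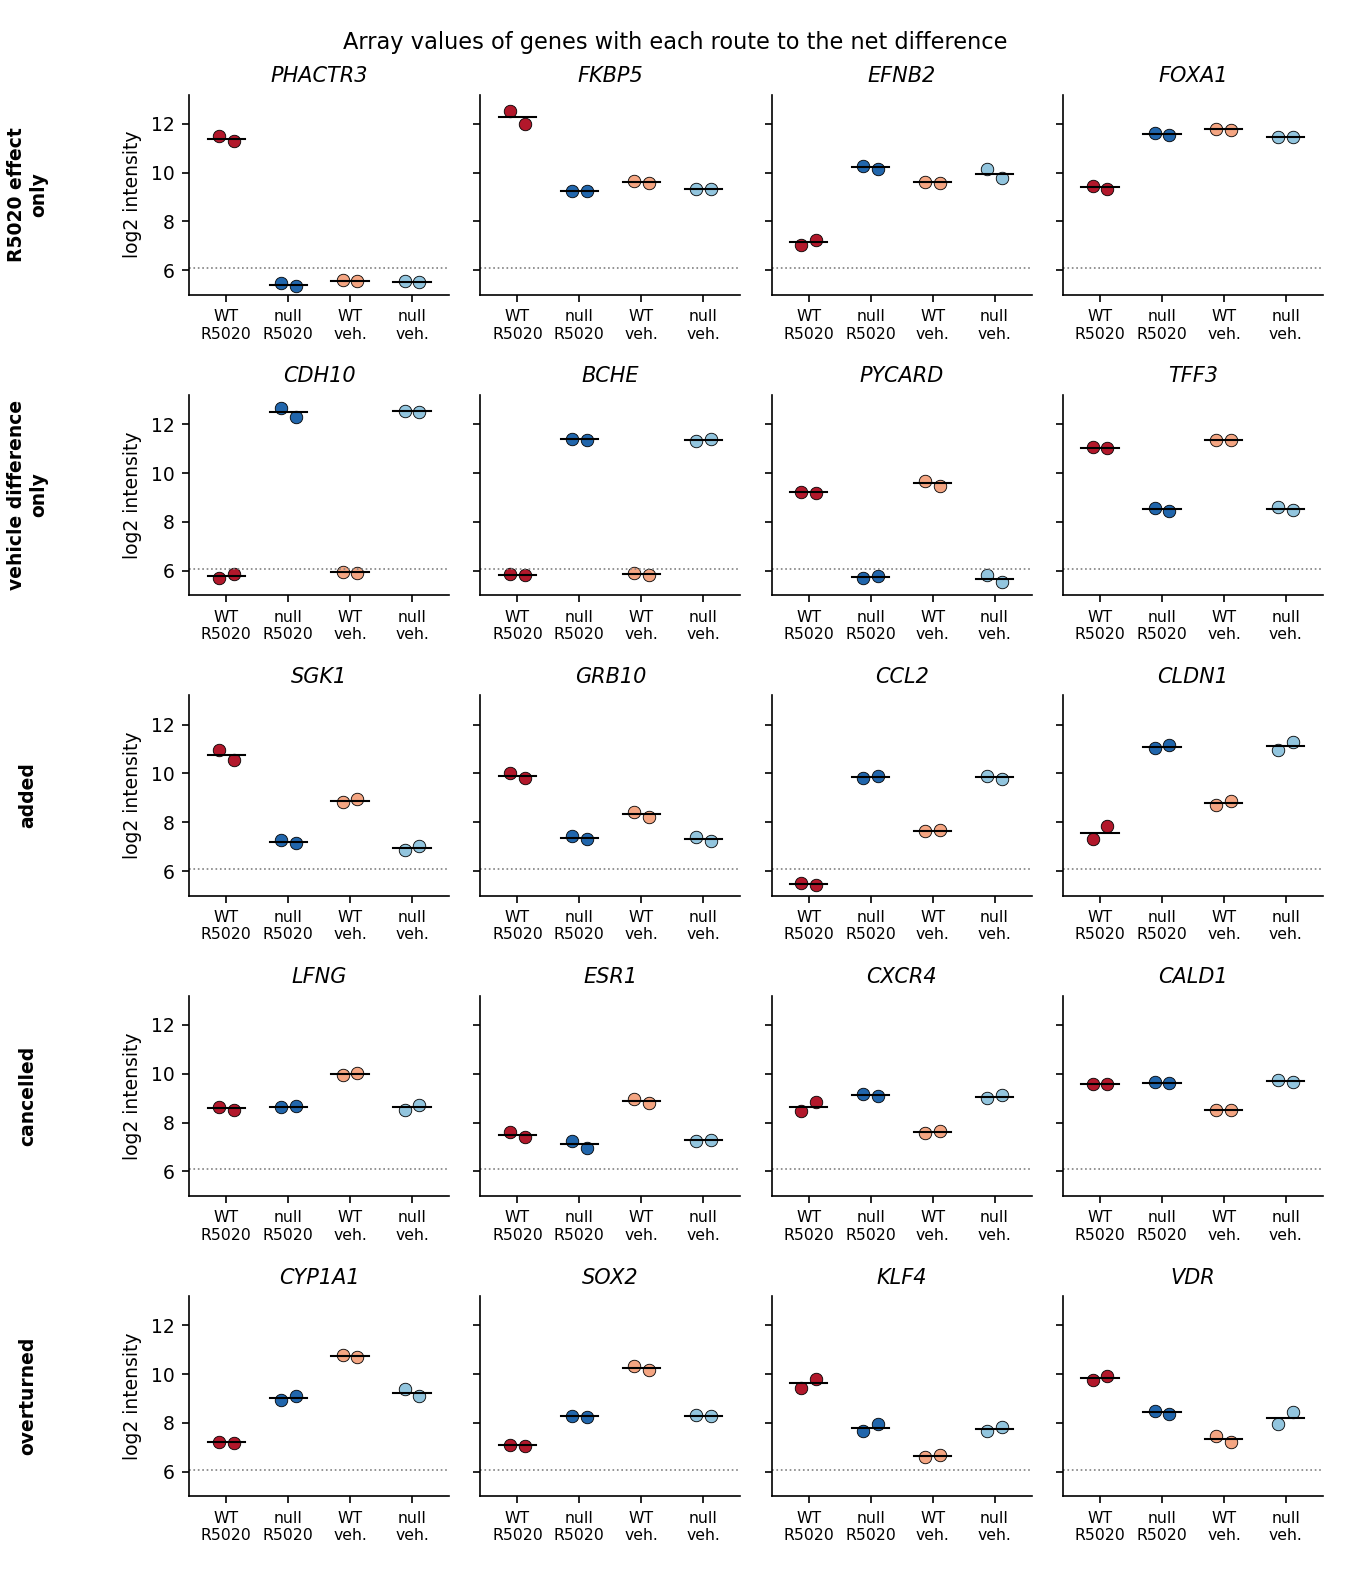
Log2 intensity of 20 genes on each array (points, 2 per group) with the group mean (bar), for WT and PR-null cells with R5020 and with vehicle, in rows by route. The dotted line is the background limit of 6.09. CDH10 stays near 5.8 in WT cells in both treatments, whereas CYP1A1 is at 7.23 and 7.19 in WT cells with R5020 and above 10.6 in WT cells with vehicle.

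The vehicle difference and the R5020 effect were both called for 128 genes, and they had one sign in 33 of these and opposite signs in 95. Both comparisons contain the WT vehicle arrays, so an error in those arrays pushes them apart. When 1 WT vehicle array was used for each comparison, so that none was shared, the split was 46 of one sign against 90 opposed with one assignment, and 38 against 94 with the other. With the R5020 effect in PR-null cells subtracted it was 32 against 92.

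Addition of 2 like-signed effects made some of the largest net differences. SGK1, a kinase induced by corticosteroids that acts on ion transport and survival, was at 10.95 and 10.57 in WT cells with R5020, against 7.27 and 7.14 in PR-null cells with R5020. In vehicle the WT arrays read 8.82 and 8.95 and the PR-null arrays 6.88 and 7.03, which placed WT cells with vehicle between. The vehicle difference was 1.93, the R5020 effect in WT cells 1.87 and the R5020 effect in PR-null cells 0.25, which gave a net difference of 3.55 ± 0.12, or 11.7-fold (adjusted p = 5.10e-27).

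The 9 genes higher in vehicle and raised by R5020 had a median net difference of 2.34, of which 0.74 was in vehicle. Beside SGK1 they were the receptor adaptor GRB10 (net 2.54), the Wnt pathway factor LEF1 (2.39), the microtubule regulator STMN3 (2.41), ZBTB7C (2.34), RGCC, a regulator of the cell cycle (2.30), KBTBD11 (1.83), the Krueppel-like factor KLF13 (1.60) and the phospholipase PLA2G10 (1.52). All 9 passed the test of the change in the line difference with R5020. Their selection by a called R5020 effect favoured this, since no gene was called for R5020 in PR-null cells, so the pass adds no support. KR cells with R5020 were lower than WT cells for KBTBD11 (by 1.60), KLF13 (by 1.31) and STMN3 (by 1.13) and were not called for SGK1, GRB10 or LEF1.

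The 24 genes lower in vehicle and lowered by R5020 had a median net difference of -2.02. CCL2, the monocyte chemoattractant, was at 5.50 and 5.42 in WT cells with R5020, against 9.82 and 9.90 in PR-null cells with R5020. WT cells in vehicle read 7.63 and 7.66, 4.56-fold below PR-null cells in vehicle. With R5020 the WT level was below the background limit, at least 2.95-fold under that of WT cells in vehicle and at least 13.7-fold under PR-null cells (adjusted p = 1.24e-31). CLDN1, a tight junction claudin, was at 7.31 and 7.84 in WT cells, against 11.02 and 11.18 in PR-null cells, and was 11.5-fold lower (vehicle -2.33, R5020 effect -1.22).

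The same direction in both components was seen for the basement membrane protein NTN4 (net -3.96, with -1.05 from its second probe), the fractalkine receptor CX3CR1 (at least 6.46-fold, second probe -0.63), the epidermal proteins SPRR3 (-2.80) and KRT80 (-2.62), TMEM40 (-2.72), PHLDA1 (-2.28, second probe -0.45), the dominant negative helix-loop-helix factor ID3 (-2.20), the glycoprotein hormone STC1 (-1.94) and the ligand TGFB3 (-1.91). The second probes of NTN4, CX3CR1 and PHLDA1 gave R5020 effects of -0.22, -0.03 and -0.19, short of the fold threshold. For these genes the call in both components therefore rests on 1 probe. Of the 24, 18 passed the test of the change in the line difference with R5020, which their selection by a called R5020 effect favoured.

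Opposed effects met in 95 genes, and 58 of them were no longer called between the lines once ligand was present. LFNG, the fringe glycosyltransferase of Notch receptors, was at 8.66 and 8.50 in WT cells with R5020, against 8.62 and 8.70 in PR-null cells with R5020, and these values overlapped. In vehicle the WT arrays stood at 9.96 and 10.03, above the PR-null arrays at 8.51 and 8.74. A vehicle difference of 1.37 (adjusted p = 7.5e-13) and an R5020 effect of -1.42 left -0.08 ± 0.11 (adjusted p = 0.790).

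ESR1, the estrogen receptor, was at 7.61 and 7.40 in WT cells with R5020, against 7.26 and 6.96 in PR-null cells with R5020. It had been 1.62 higher in WT cells in vehicle, and R5020 lowered it by 1.39, leaving a net difference of 0.39 that was not called (adjusted p = 0.0148). CYP1A2, a drug-metabolising cytochrome P450, read 5.85 and 5.87 in WT cells with R5020, below the background limit, against 6.33 and 6.16 in PR-null cells with R5020. It was 2.16 higher in WT cells in vehicle, and R5020 lowered it there by at least 5.22-fold.

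Cancellation ran the other way for CALD1, the actin-binding caldesmon, at 9.59 and 9.59 in WT cells with R5020, against 9.65 and 9.60 in PR-null cells, after 8.50 and 8.50 in WT cells in vehicle. The vehicle difference was -1.21 and the R5020 effect 1.09. CXCR4, the receptor of the chemokine CXCL12, kept part of its vehicle difference (net -0.48, vehicle -1.47, R5020 effect 1.06), and its second probe above the limit gave a net difference of -0.68. The list also held the CDK inhibitor CDKN1A (net -0.13, vehicle -1.11, R5020 effect 0.90), the metallothionein MT2A (net -0.17, vehicle -1.14, R5020 effect 0.88) and ezrin, EZR, which links membranes to actin (net -0.07, vehicle -0.85, R5020 effect 0.80). A net value that misses the threshold does not show equal levels: the SE of these differences was 0.11 to 0.12.

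For 13 genes R5020 offset part of the vehicle difference and the gene kept its vehicle direction. PGR itself was among them, with IGFBP5, an insulin-like growth factor binding protein (net 1.26, vehicle 2.28), and the fatty acid receptor CD36 (net 2.50, vehicle 3.30). The small heat shock protein HSPB8 was lower in WT cells in both treatments (net -0.78, vehicle -1.78).

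In 24 genes the ligand effect exceeded an opposed vehicle difference and the sign of the line difference turned, with 13 genes higher in WT cells in vehicle and lower with R5020, and 11 the reverse. CYP1A1, the cytochrome P450 that marks aryl hydrocarbon receptor activity, was at 7.23 and 7.19 in WT cells with R5020, against 8.94 and 9.11 in PR-null cells with R5020. In vehicle it was at 10.80 and 10.69 in WT cells, against 9.39 and 9.09 in PR-null cells. The arrays were thus separate in both treatments and in opposite order (net -1.81, vehicle 1.50, change of the difference -3.32, adjusted p = 4.4e-20).

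SOX2, a stem cell transcription factor, was at 7.12 and 7.06 in WT cells with R5020, against 8.30 and 8.25 in PR-null cells with R5020, and at 10.32 and 10.19 in WT cells in vehicle, against 8.33 and 8.27 in PR-null cells. Its second probe gave the same net difference of -1.19. Also turned to lower were VAV3, a guanine nucleotide exchange factor (net -2.35, vehicle 0.61), and ELF3, an epithelial ETS factor (net -2.05, vehicle 0.62). Both vehicle differences lay close to the fold threshold of 0.6. XBP1, a factor of the unfolded protein response and of luminal cells, turned as well (net -0.74, vehicle 0.71).

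KLF4, a Krueppel-like factor of epithelial differentiation, ran in the opposite order, at 9.45 and 9.82 in WT cells with R5020, against 7.66 and 7.97 in PR-null cells with R5020. In vehicle WT cells read 6.59 and 6.70 and PR-null cells 7.66 and 7.85. VDR, the vitamin D receptor (net 1.42, vehicle -0.86), RCAN1, an inhibitor of calcineurin (net 1.17, vehicle -1.04), TIPARP, an ADP-ribosyltransferase that restrains the aryl hydrocarbon receptor (net 1.28, vehicle -0.82), and TNFRSF10B, a TRAIL death receptor (net 0.75, vehicle -0.67), turned the same way as KLF4. The 2 further TNFRSF10B probes gave net differences of -0.26 to 0.28, and the second probes of KLF4 (net 1.52, vehicle -0.45) and VDR (net 0.74, vehicle -0.29) missed the fold threshold in vehicle, so that the called change of sign rests on 1 probe for each of these 3 genes.

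**Figure D3:**
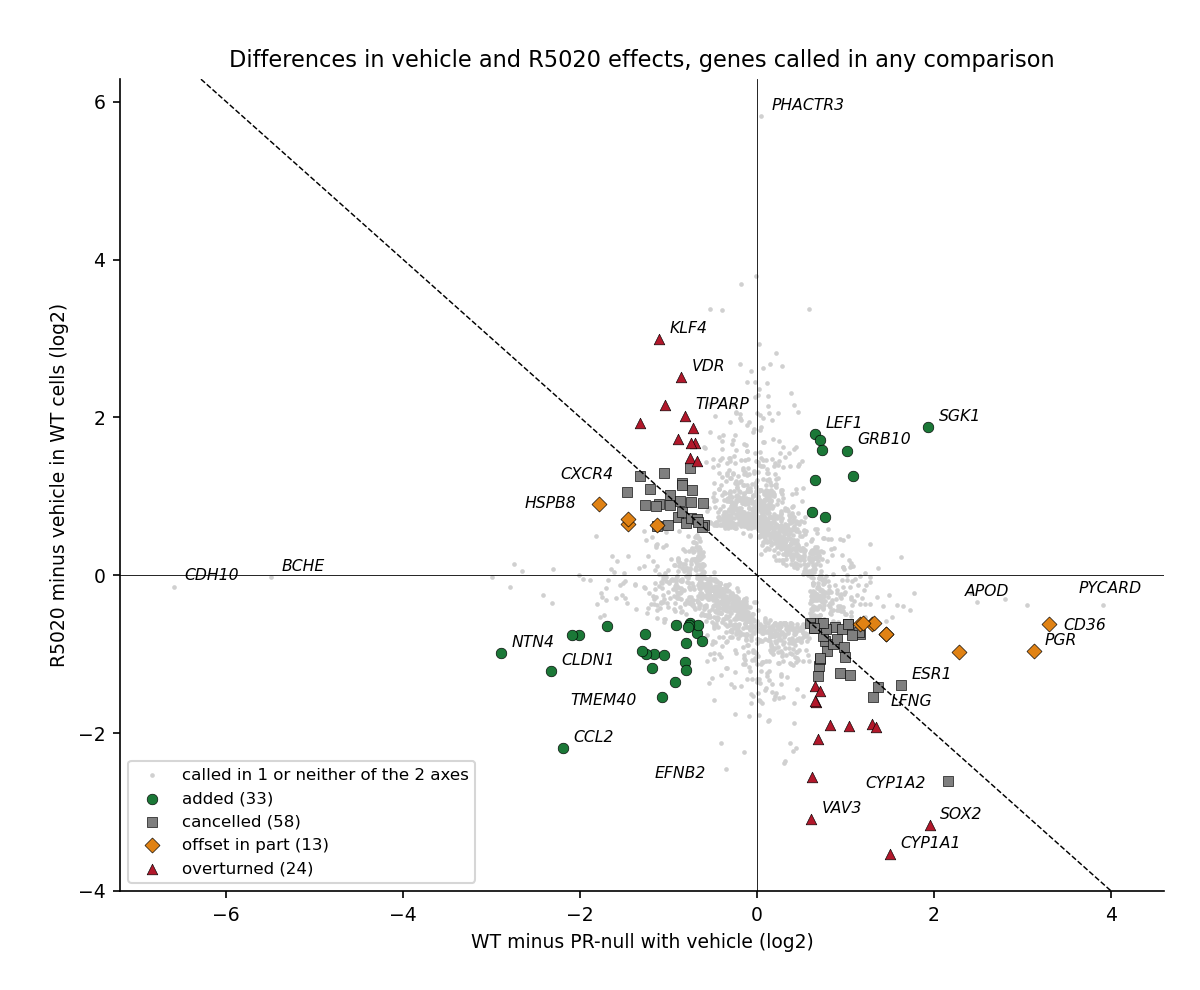
Log2 difference of WT from PR-null cells in vehicle (x axis) against the log2 effect of R5020 in WT cells (y axis) for the 2064 genes called in at least 1 of the 3 comparisons. Coloured points were called on both axes, and on the dashed line the 2 effects sum to 0. The empty centre follows from plotting called genes only. Of the coloured points, 95 lie in the quadrants of opposite sign and 33 in those of like sign.

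The change of the line difference with R5020 was itself tested as an interaction, and 619 genes shifted upward (3.09%) and 426 downward (2.13%). All 24 turned genes passed this test. Their selection by called differences of opposite sign made that all but certain, so the pass adds no support. KR cells gave a separate reading of the liganded state. WT cells with R5020 were higher than KR cells with R5020 at 272 genes (1.36%) and lower at 241 (1.20%), and since this comparison shares the WT arrays with the net comparison, the values are only set side by side. CYP1A1 read 6.85 and 6.93, SOX2 7.97 and 8.08, TIPARP 12.22 and 12.33 and LFNG 8.63 and 8.73 in KR cells with R5020. Against PR-null cells, the KR line did not repeat most of the 24 turns. Both differences were called there with opposite signs only for BAMBI, CMTM7, CYP1A1, SLC25A18, TIPARP and VDR. The values were 0.65 in vehicle and -2.13 with R5020 for CYP1A1, and -0.74 and 1.50 for TIPARP. VAV3, ELF3 and KLF4 were called in KR cells with R5020 (-2.06, -0.92 and 1.24) but not in vehicle (0.14, 0.48 and -0.45). SOX2 was higher in vehicle (1.93) but not called with R5020 (-0.26), and ARID5B was called in neither treatment (0.13 and 0.10).

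Gene lists drawn up for steroid hormone action, breast cell identity and signalling were then read against the shares over all genes. These shares were 4.25% higher and 3.62% lower in the net comparison, and 1.47% and 1.69% in vehicle. For R5020 in WT cells they were 3.30% and 2.00%. Small counts in short lists are not read as results about the lists. Of 109 measured genes from published lists of progestin-induced genes, 66 were higher in WT cells with R5020 and 2 were lower, with a median difference of 0.76 beside -0.0039 over all genes. In vehicle 2 were higher and 10 lower (median -0.08), and R5020 raised 68 and lowered 0 in WT cells (median 0.84). Of these 68, 10 were not called in the net comparison. In 5 of the 10, a called lower level in vehicle stood against the induction: EZR, PFKP, PPM1H, TNFRSF21 and KIAA0513 had vehicle differences of -0.62 to -1.05 and R5020 effects of 0.61 to 1.29. CEBPD, a bZIP factor that glucocorticoids also induce, was 5.12-fold higher, and STAT5A, a transducer of prolactin signals, was at 8.12 and 8.33 in WT cells with R5020, against 6.29 and 6.16 in PR-null cells.

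More luminal markers were lower than higher in WT cells with ligand, and more were higher than lower in vehicle. Of 23 measured, 10 were lower and 2 higher in WT cells with R5020 (median -0.43), whereas in vehicle 0 were lower and 5 higher (median 0.20). The summed log2 level of the list was 233 and 232 in WT cells with R5020, against 244 and 243 in PR-null cells with R5020, and 251 and 251 in WT cells in vehicle. Of the 10, 8 were transcription factors: FOXA1 (net -2.19), ELF3 (-2.05), TFAP2A (-1.79), ELF5 (-1.48), SPDEF (-1.43), GATA3 (-1.30), TFAP2C (-1.08) and XBP1 (-0.74). The keratins KRT18 (-1.29) and KRT8 (-0.71) were also lower, while TFF3 and the prolactin receptor PRLR (0.99) were higher. Of 18 basal and mesenchymal markers, 1 was higher and 2 were lower. ACTA2, smooth muscle actin, was at 7.13 and 7.36 in WT cells with R5020, against 9.34 and 9.58 in PR-null cells, and its difference was as large in vehicle (-2.30).

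Estrogen-induced genes were higher on balance, 9 of 20 against 2 lower (median 0.38). The count includes PGR, which WT cells carried as a transfected cDNA and PR-null cells did not. CA12, a carbonic anhydrase (net 1.30), GREB1, an estrogen receptor cofactor (0.97), CCND1, cyclin D1 (1.06), MYC (0.97) and CXCL12 (at least 1.92-fold) were among them, and of these none was called in vehicle. CCND1 rose by 1.82 with R5020 in WT cells, and its vehicle difference of -0.53 was below the fold threshold.

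Of 37 measured interferon-stimulated genes, 16 were lower in WT cells with R5020 and 1 was higher (median -0.36). In vehicle 10 were lower and 1 higher (median -0.22). Among all genes 3.62% were lower with R5020 and 1.69% in vehicle. R5020 effects in WT cells were called for 1 gene, HERC5, which encodes a ligase that attaches ISG15 and was the gene higher in the net comparison (1.71). IFIT1, an inhibitor of viral translation, was at 6.18 and 6.10 in WT cells with R5020, against 7.86 and 8.69 in PR-null cells with R5020 (net -2.13 ± 0.15, adjusted p = 6.85e-16). Its 2 PR-null arrays lay far apart, and for all 16 lower genes the second PR-null array with R5020 was above the first. The mean of the 16 was 6.77 and 6.83 in WT cells with R5020 and 7.84 and 8.15 in PR-null cells with R5020, beside 7.80 and 7.83 in PR-null cells in vehicle. Without the second PR-null array with R5020, 12 genes were called lower in place of 16 (an alternative chosen after seeing the data). The other lower members included MX1 (net -2.07), IFI27 (at least 3.17-fold), ISG15 (at least 2.78-fold), IFI6 (-1.65) and the STAT partner IRF9 (-1.29).

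The interferon-stimulated response element, to which the factor containing IRF9 binds, is the sequence searched in promoters of this list, and 3 of the lower genes are shown for where its core lies. The core searched was GAAA, any 2 bases and GAAA again, on both strands, in RefSeq promoters (build GRCh38.p14, 250 bases before to 50 after the gene start). It was found in 10 of the 13 lower genes of the list with a promoter, in 21 of 30 list members and in 3.65% of all 27305 promoters. Matches are in capitals, and overlapping or reverse-strand matches are included. The stretches are chr10:89392447-89392589, plus strand for IFIT1, chr14:94110568-94110710, plus strand for IFI27 and chr1:1013324-1013459, plus strand for ISG15.
IFIT1: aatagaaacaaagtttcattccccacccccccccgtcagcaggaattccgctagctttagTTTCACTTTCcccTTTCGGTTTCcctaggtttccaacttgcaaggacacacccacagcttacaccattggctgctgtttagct
IFI27: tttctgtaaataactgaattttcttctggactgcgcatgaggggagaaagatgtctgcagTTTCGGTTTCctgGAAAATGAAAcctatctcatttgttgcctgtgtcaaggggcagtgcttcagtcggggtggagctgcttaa
ISG15: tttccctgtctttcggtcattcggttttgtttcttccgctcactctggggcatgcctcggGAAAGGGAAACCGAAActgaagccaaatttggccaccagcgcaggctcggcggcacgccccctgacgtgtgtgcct

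Genes of the aryl hydrocarbon receptor, a sensor of planar aromatic compounds, went both ways. Of 12 measured, 2 were higher and 3 lower in WT cells with R5020. CYP1A1, CYP1B1 (net -1.08) and the quinone reductase NQO1 (-0.65) were lower while TIPARP and the amino acid transporter SLC7A5 (0.91) were higher. CYP1A1 and TIPARP changed the order of the lines in opposite directions, and their promoters are shown beside each other because both hold the core of the xenobiotic response element, GCGTG on either strand. That core is found in 36.3% of all promoters. The stretches are chr15:74725521-74725645, minus strand for CYP1A1 and chr3:156674340-156674512, plus strand for TIPARP, with the core in capitals.
CYP1A1: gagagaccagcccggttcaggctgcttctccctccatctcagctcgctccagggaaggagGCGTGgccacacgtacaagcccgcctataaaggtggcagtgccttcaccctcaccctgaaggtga
TIPARP: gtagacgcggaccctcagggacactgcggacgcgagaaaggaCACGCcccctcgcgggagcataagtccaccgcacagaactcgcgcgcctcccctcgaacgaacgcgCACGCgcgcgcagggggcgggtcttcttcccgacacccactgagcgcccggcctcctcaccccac

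The palindromic progesterone response element, searched as GNACA and TGTNC 3 bases apart (N any base), was rare in these windows, with 0.388% of all promoters. It was in 3 of 683 promoters of genes higher in WT cells with R5020 and 1 of 583 of genes lower, and in 0 of the 114 promoters of genes named by rule. Those 4 genes, chosen by the motif after their values were seen, were CHST7, a sulfotransferase (net 0.84), FOXN3, a forkhead repressor (1.23), the kinase MAP3K6 (0.99) and TXNIP, an inhibitor of thioredoxin and of glucose uptake (-0.95). TXNIP was at 9.88 and 9.52 in WT cells with R5020, against 10.60 and 10.70 in PR-null cells with R5020. FOXN3 was called in vehicle (0.68) and the other 3 only for R5020. The element is in capitals in the stretches at chrX:46573515-46573593, plus strand for CHST7, chr14:89619337-89619415, minus strand for FOXN3, chr1:27367041-27367173, minus strand for MAP3K6 and chr1:145996682-145996814, minus strand for TXNIP.
CHST7: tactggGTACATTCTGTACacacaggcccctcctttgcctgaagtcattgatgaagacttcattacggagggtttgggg
FOXN3: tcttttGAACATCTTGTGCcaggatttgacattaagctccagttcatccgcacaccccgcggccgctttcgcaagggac
MAP3K6: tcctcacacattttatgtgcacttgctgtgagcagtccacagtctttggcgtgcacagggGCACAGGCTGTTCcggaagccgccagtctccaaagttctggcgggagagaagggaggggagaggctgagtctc
TXNIP: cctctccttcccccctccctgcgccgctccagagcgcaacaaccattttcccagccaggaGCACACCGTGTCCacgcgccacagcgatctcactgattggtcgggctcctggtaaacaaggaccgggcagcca

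Of 24 measured feedback and immediate early genes of the MAP kinase pathway, 7 were lower with R5020 and 1, MYC, was higher (median -0.33). In vehicle 9 were lower and 0 higher, and R5020 raised 2 and lowered 2 in WT cells. The share of all genes that were lower was 3.62% with R5020 and 1.69% in vehicle. DUSP6, the ERK phosphatase, was at 6.52 and 6.62 in WT cells with R5020, against 7.99 and 8.27 in PR-null cells (net -1.56, adjusted p = 8.43e-15), with an R5020 effect in WT cells of 0.04. ETV5 (-1.95), DUSP5 (-1.53) and SPRED2 (-1.13) followed, and the second ETV5 and DUSP6 probes gave -0.27 and -0.67. JUNB (-0.83), SPRY1 (-0.76) and FOSB (at least 1.30-fold) were lower in the net comparison without a called vehicle difference.

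Notch pathway genes were more often higher than lower, 8 against 2 of 24 (median 0.15), beside 4.25% and 3.62% over all genes. The target factor HEY2 (net 1.44) and the ligase DTX2 (1.39) were higher in vehicle as well, HES2 (1.99), JAG1 (at least 1.54-fold) and NOTCH2 (0.81) were called for R5020 and not in vehicle, and HES1 (-1.12) and NOTCH3 (-0.82) were lower. In the STAT and SOCS list 6 of 16 were higher and 1, JAK1 (-0.81), was lower (median 0.30). STAT5B (0.71), PRLR, the growth hormone receptor GHR (0.76) and LIFR (0.71) were higher beside STAT5A, and SOCS2, an inhibitor of growth hormone signals, was 2.38-fold higher with most of its difference in vehicle (0.84).

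Of 25 BMP and TGF-beta genes, 4 were lower with R5020 and 0 were higher, and in vehicle 3 were lower and 4 higher. The shares of all genes were 3.62% lower and 4.25% higher with R5020, and 1.69% and 1.47% in vehicle. ID3 and TGFB3 were lower by both components, BAMBI, a decoy receptor, was turned to lower (net -0.85), and TGFB2 read 5.47 and 5.63 in WT cells, below background, against 6.35 and 6.59 in PR-null cells. Adhesion genes were lower in 7 of 26 and higher in 1, the claudin CLDN8 (3.45-fold), while CLDN1, the laminin chain LAMB3 (net -1.31) and the integrin ITGA2 (-1.17) were lower.

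Of 36 G1/S and replication genes, 4 were higher (CCND1, GINS2 at 1.04, CDC7 at 0.84 and CDC25A at 0.83) and 2 lower, beside 4.25% and 3.62% over all genes. Of 35 G2/M genes 0 were called by limma in any of the 3 comparisons. In the net comparison 20 of these had an unadjusted p under 0.05 and 6 an adjusted p under 0.01, with log2 differences of -0.58 to 0.58. Among 6 CDK inhibitors 2 were lower, CDKN2B (-1.14) and CDKN1B (-0.82, and -0.57 without the second WT array with R5020, which is not called). In the ERBB list of 14 the receptor ERBB2 (net -1.02, with -0.12 to -0.05 from 2 probes not above the limit), its adaptor GRB7 (-1.28) and the feedback inhibitor ERRFI1 (-0.60, and -0.55 without the first WT array or -0.50 without the second PR-null array with R5020, neither of which is called) were lower and the ligand EGF was higher (at least 1.39-fold). Of 22 genes of glucose and fatty acid use, 5 were higher, among them PDK4, which restrains pyruvate oxidation (4.67-fold), PFKFB4 (3.29-fold), PFKFB3 (2.72-fold) and the glucose transporter SLC2A1 (1.96-fold), and TXNIP was lower.

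**Figure D4:**
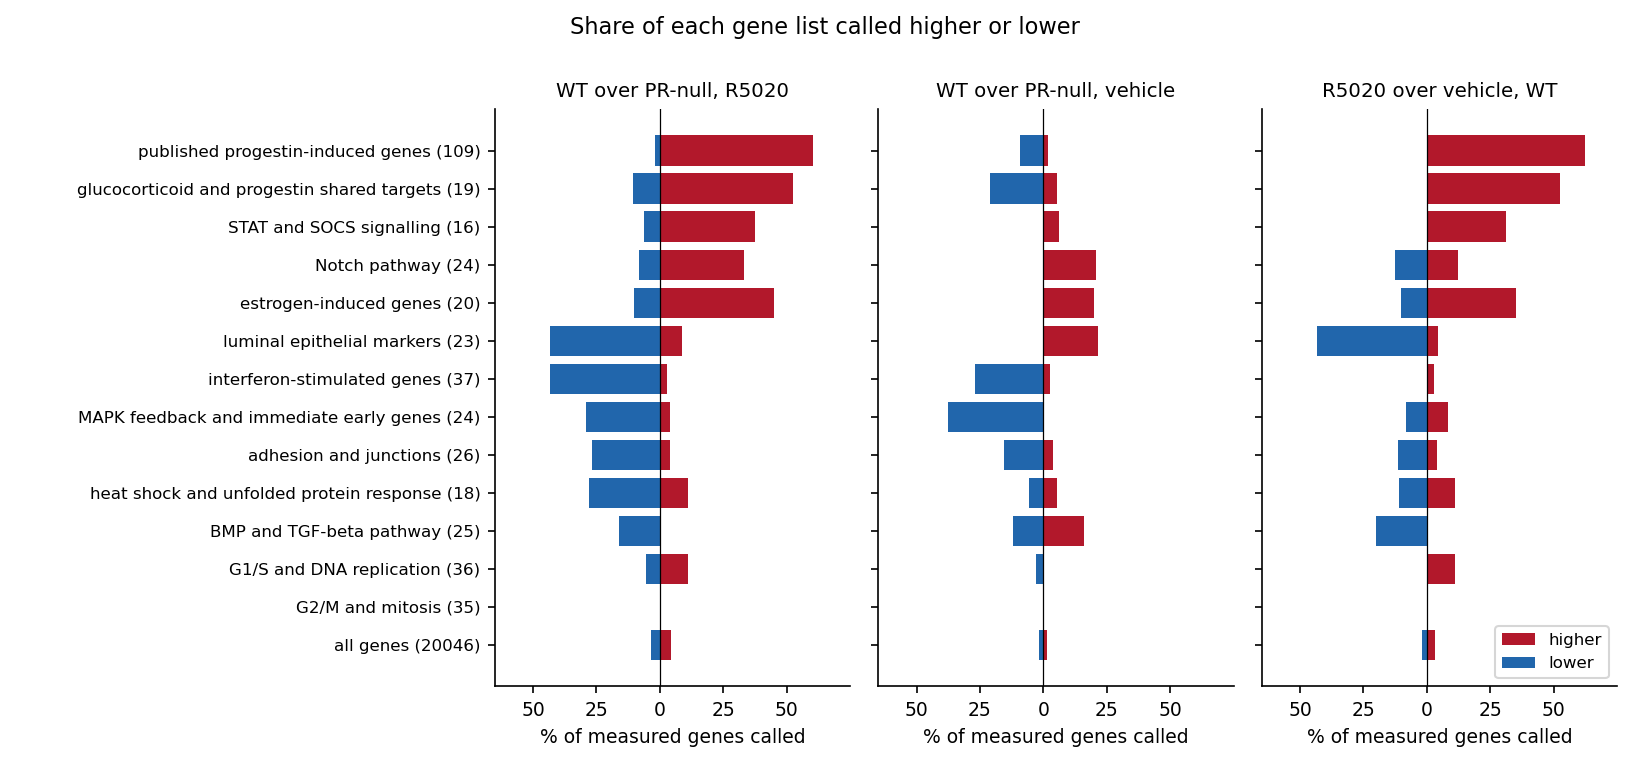
Percentage of the measured genes of 13 lists, and of all 20046 genes, called higher (red, to the right of 0) or lower (blue, to the left) in the net comparison, in vehicle and for R5020 in WT cells, with the number measured in parentheses. Progestin-induced genes are higher in the net comparison and for R5020 but not in vehicle, while 16 of 37 interferon-stimulated and 7 of 24 MAP kinase feedback genes are lower in the net comparison and 10 and 9 in vehicle.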

How the data were processed

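RNA of 12 samples (6 groups, 2 arrays each, which the methods describe as duplicate experiments) was hybridised to Illumina HumanHT-12 bead arrays. The authors converted the array signals to log2 and quantile normalized them with lumi, whose version the sources used here do not give, and these deposited log2 values were the starting point. A table of 12 unnormalized intensity columns could not be assigned to samples and was not used. Of 47231 probes, 30113 had 1 gene symbol, 8 several and 17110 none. The brightest probe (mean over 12 arrays) stood for each of 20046 genes. Group means were fitted to all 12 arrays with limma 3.58.1 in R 4.3.3, p-values were adjusted (Benjamini-Hochberg) over all probes, and the thresholds were those of the study's methods. The fit was tested on simulated data. Arrays give no read depth, and 2 arrays per group limit the precision. Where a group was at or below the background limit of 6.09, the fold is a bound against that limit, which was chosen after the data were seen.

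Named genes were PGR, 3 reference genes, the 15 highest and 15 lowest net differences, up to 8 genes per combination of vehicle and R5020 calls, the leading genes of each route, and up to 4 called members per list, above background and without overlap between arrays. Others were named after their values were seen. The comparison, the genes and the 31 lists were chosen with earlier results of these data known, and the progestin-induced lists come from earlier published work compiled by the study. Replicate numbers did not pair the arrays (correlations of deviations from -0.0468 to 0.0498 over 12587 probes). Alternatives were other arrays in the fit, cyclic loess, normexp correction, a filter on dim probes, the mean of a gene's probes, other thresholds, a replicate block and leaving out each array. No columns of the authors' own comparisons were used.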

Additional observations from a re-analysis of the deposited data

Results flagged for a closer look

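The effect of the receptor line was compared between treatments, as the difference of WT from PR-null cells with R5020 minus that in vehicle, and 1045 genes passed the test of this change (limma, adjusted over all probes). They were set apart because the line difference changed with treatment. In 24 of them the line difference was called with R5020 and in vehicle, with opposite signs. The change was -3.32 for CYP1A1, -3.14 for SOX2, -2.96 for VAV3 and -2.67 for ELF3. It was -2.14 for SLC7A2, a cationic amino acid transporter, -2.01 for CCNO, -1.95 for ARID5B, -1.92 for MEGF9, -1.85 for PGM2L1 and -1.77 for CRACDL. It was -1.52 for BAMBI, -1.50 for LURAP1L and -1.45 for XBP1. In the other direction the change was 2.93 for KLF4, 2.28 for VDR, 2.21 for RCAN1, 2.10 for TIPARP and 1.92 for SLC25A18. It was 1.77 for FJX1, 1.74 for CMTM7, 1.68 for FAM43A, 1.59 for CSRNP1, 1.47 for PPP1R14C and 1.42 for TNFRSF10B. The changes of LURAP1L and SLC25A18 rest in part on values not above the background limit. These were 5.77 and 5.66 for LURAP1L in WT cells with R5020, and 6.01 and 6.09 for SLC25A18 in WT cells in vehicle. The net difference of MEGF9 fell below the threshold without the second WT array with R5020 (-0.58) or the second PR-null array with R5020 (-0.60), and that of SLC25A18 without the first WT array (0.50) or the second PR-null array (0.51). With the mean of a gene's probes the net differences of MEGF9 (-0.39), SLC7A2 (-0.39) and TNFRSF10B (0.25) were not called. These alternatives were followed gene by gene for the net difference only. Whether each vehicle difference stayed called was not checked, and those of VAV3 (0.61) and ELF3 (0.62) lay close to the threshold. Groups of 2 arrays were too small for a test of single outlying arrays.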

How the results depend on the processing

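The counts of genes kept within 1.5 times of their reported values, except as follows. With a log2 difference over 1 in place of 0.6, 295 genes were higher and 272 lower in WT than in PR-null cells with R5020, and 238 and 133 passed the test of the change with R5020. At that threshold 39 genes were higher and 66 lower in WT than in KR cells with R5020, 3 were higher in vehicle and raised, 7 lower and lowered, 10 higher and lowered, and 7 lower and raised. With unshared vehicle arrays, 16 or 15 genes in place of 9 were higher in vehicle and raised by R5020. Interferon-stimulated genes lower in WT cells numbered 8 at the log2 threshold of 1. Fewer genes pass a stricter threshold by construction, and the cause of the other shifts was not tested.

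Leaving out each array in turn gave 852 to 888 genes higher and 724 to 811 lower with R5020, with 9 to 13, 24 to 28, 50 to 65 and 34 to 48 in the 4 combinations of called vehicle and R5020 effects. It gave 506 to 529 and 298 to 336 for the change with R5020, in place of 619 and 426, and 272 to 284 and 241 to 269 against KR. A group left with 1 array was assumed to vary like the others. With the replicate block 852 genes were higher and 725 lower, and no count of calls moved by over 1.5 times. Cyclic loess gave 881 and 686, normexp 773 and 647, and the mean of a gene's probes 690 and 606. Of 2278 values of the 134 named genes called, 2220 stayed called in the same direction, 58 fell below the threshold and 0 changed sign. Many of those values could not move. The net log2 difference stays the same with other arrays in the fit, the filter on dim probes or the replicate block. It also stays the same with another adjusted p threshold or a vehicle array left out. Many named genes were also picked for large differences, so the share that stayed called is no measure of robustness. A fit with the slide as a block was not run because the slides are not known here. Probes near background limit what can be measured: 94 of the genes higher in WT cells had PR-null levels at or below the limit, and 70 of those lower had WT levels at or below it.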

Other observations

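Of 19 targets shared by glucocorticoids and progestins, 10 were higher and 2 lower in WT cells with R5020 (median 0.70), among them the repressor ZBTB16 (1.55), the leucine zipper protein TSC22D3 (1.12) and KLF9 (0.97), while ANGPTL4 (-1.08), a lipase inhibitor, was lower with its difference in vehicle (-1.23). The list counts here stand beside 4.25% of all genes higher and 3.62% lower in the same comparison. Of 25 NF-kB and chemokine genes 4 were higher and 3 lower. The inhibitor NFKBIA was higher (1.34) and the coactivator BCL3 was lower (-1.94), both called for R5020 and not in vehicle. Of 28 Wnt pathway genes 4 were higher and 4 lower, with LEF1 (2.39) and the antagonist NKD2 (1.11) against WNT5A (-1.43), which was lower in vehicle as well (-1.13). Of 23 pro-apoptotic genes 4 were higher, BCL2L11 (0.96), BIK (0.78), TNFRSF10B (0.75) and TNFRSF10A (0.66), and 2 lower, and of 13 anti-apoptotic genes the kinase PIM2 (1.81) and CFLAR (0.89) were higher.

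Of 17 steroid receptor coregulators 3 were higher (CITED1 at 1.31, NCOA1 at 0.99 and PPARGC1B at 0.93) and 2 lower (CITED2 at -2.16 and NRIP1 at -0.88). Of 29 nuclear receptors 3 were higher, with the transfected PGR among them, and 1 lower, RARA (-1.09). With the mean of a gene's probes NCOA1 (0.50), RARA (-0.35) and BCL2L11 (0.54) were not called. The heat shock and unfolded protein response list had 2 higher and 5 lower of 18, with HSPA1A at -1.08. Of 21 genes from a published list of ligand-independent PR genes 3 were higher and 6 lower, while in vehicle 1 was higher, SELENOP (1.46), and 3 were lower, CDKN1A (-1.11), STC1 (-1.05) and SPRY2 (-0.68). Antigen presentation had 2 lower of 19, and HLA-B was not called without the first WT array with R5020 (-0.55). Of 20 genes of fatty acid and cholesterol synthesis 1 was lower, of 10 metallothioneins MT1F was higher (0.93), and of 10 SUMO pathway genes 0 were called by limma (4 at an unadjusted p under 0.05). Over all genes 4.25% were higher and 3.62% lower, so counts this small in short lists are not read as results about the lists.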
